A study of Bos taurus with 22 samples.

Results

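Interferon-stimulated genes are the antiviral effectors that cells switch on when interferons bind their receptors. The receptors act through JAK kinases to assemble a transcription complex, which includes STAT2 and IRF9 and binds the promoters of these genes. In ruminants they are best known for their induction by interferon tau, the signal that the conceptus sends to the dam in early pregnancy. The set described here comprised 10 genes by name: ISG15, IFIT1, IFIT2, IFIT3, IFIT5, MX1, MX2, IFI27, IFI6 and IFI44. Members were all probe sets to which the array's annotation gave 1 of these names as the single gene symbol. There were 11 such probe sets, of 24016 bovine probe sets in all, and they covered 8 of the 10 genes. IFI44 had 4 probe sets and each of the other 7 genes had 1. IFIT1 and IFIT3 had none and are not described further.

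The tissue was dorsal subcutaneous white fat of 11 first-calving Holstein heifers. Each was sampled 14 days postpartum and 30 days prepartum. The heifers were 24 to 28 months old and were raised on the same farm and diet. They carried no genetic or drug treatment. Stage, lactation and any difference in ration go together in this design and cannot be told apart. Each group held 11 arrays, and by the titles every cow gave 1 array to each group. The titles also end in 1 of 2 codes of unstated meaning, by which 6 cows form array set 2 and 5 cows form array set 1. Both arrays of a cow share a set.

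Values are MAS5 signals, a linear brightness per probe set that depends on the probes, so that levels are compared between arrays and not between genes. Arrays have no read depth, and precision rests on how many were run. All 15 measured adipocyte markers passed the filter on dim probe sets. Some arrays also carried other tissue. Skeletal muscle markers exceeded their medians by 8.30 log2 units on the array of cow 384 postpartum and by 7.66 on that labelled cow 387 prepartum. They stood 4.63 up on the array of cow 386 postpartum, 3.24 up on that of cow 384 prepartum and 1.01 up on that of cow 382 postpartum. The epidermal list level stood 1.41 to 3.15 up in 4 prepartum arrays, of cows 331, 330, 382 and 341. It rested on 2 kept genes, KRT5 and KRT10, with 5 below the filter. KRT5 ran from 109 to 234 prepartum and from 81.7 to 234 postpartum. KRT10 ran from 60.3 to 6002 prepartum and from 41.9 to 112 postpartum, so that the excess was that of KRT10 alone. Whether it came from epidermis was not tested. The pairing of cow 387 is in doubt. The deviations of its arrays from the group means correlated at -0.09, against 0.18 to 0.43 for the other 10 cows. Its muscle markers stood at 7.66 on the array labelled prepartum and at 9e-04 on the postpartum array. Cow 386, with muscle markers at 4.63 postpartum and -0.01 prepartum, correlated at 0.24. The part of muscle in these correlations was not tested.

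After calving 1 interferon-stimulated gene passed the test. IFI27, which encodes a small hydrophobic protein of mitochondrial and nuclear membranes in human cells, fell 1.86-fold. IFI6, MX1, ISG15, IFI44 and IFIT5 did not pass, and for each of them the SD of the change among cows exceeded its mean. For IFI27 the 2 were nearly equal, with an SD of 0.87 and a mean change of -0.89. IFIT2, MX2 and 1 probe set of IFI44 lay below the filter, which required a mean level at or above the 40th percentile of bovine probe sets. Of the 6 genes left, 1 fell and 0 rose at an adjusted p under 0.05, while 3.71% of all 6984 genes tested were called, 2.16% lower and 1.55% higher, and 3.43% of all probe sets tested were called. The median change of the 6 genes was -0.21 log2 units, and that of all genes tested was 0.01. Cows 360 and 384 were singled out after their prepartum arrays were seen to have the highest member levels. Without these cows the changes were -0.64 for IFI27, -0.08 for IFI6, 0.01 for MX1, 0.08 for IFIT5, 0.15 for IFI44 and 0.41 for ISG15. The choice of cows favoured such a rise in the changes, so the shift tests nothing. Over all 11 cows ISG15 and the brightest IFI44 probe set were higher postpartum in 7 and IFIT5 in 6. The other kept IFI44 probe sets were each lower postpartum in 6 cows, and that below the filter in 8. Changes are on the scale log2(signal + 7.78), which understates the change of dim genes. Unless stated otherwise, an adjusted p is that of a moderated limma fit over 14410 probe sets, blocked by cow, with Benjamini-Hochberg adjustment.

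**Figure D1:**
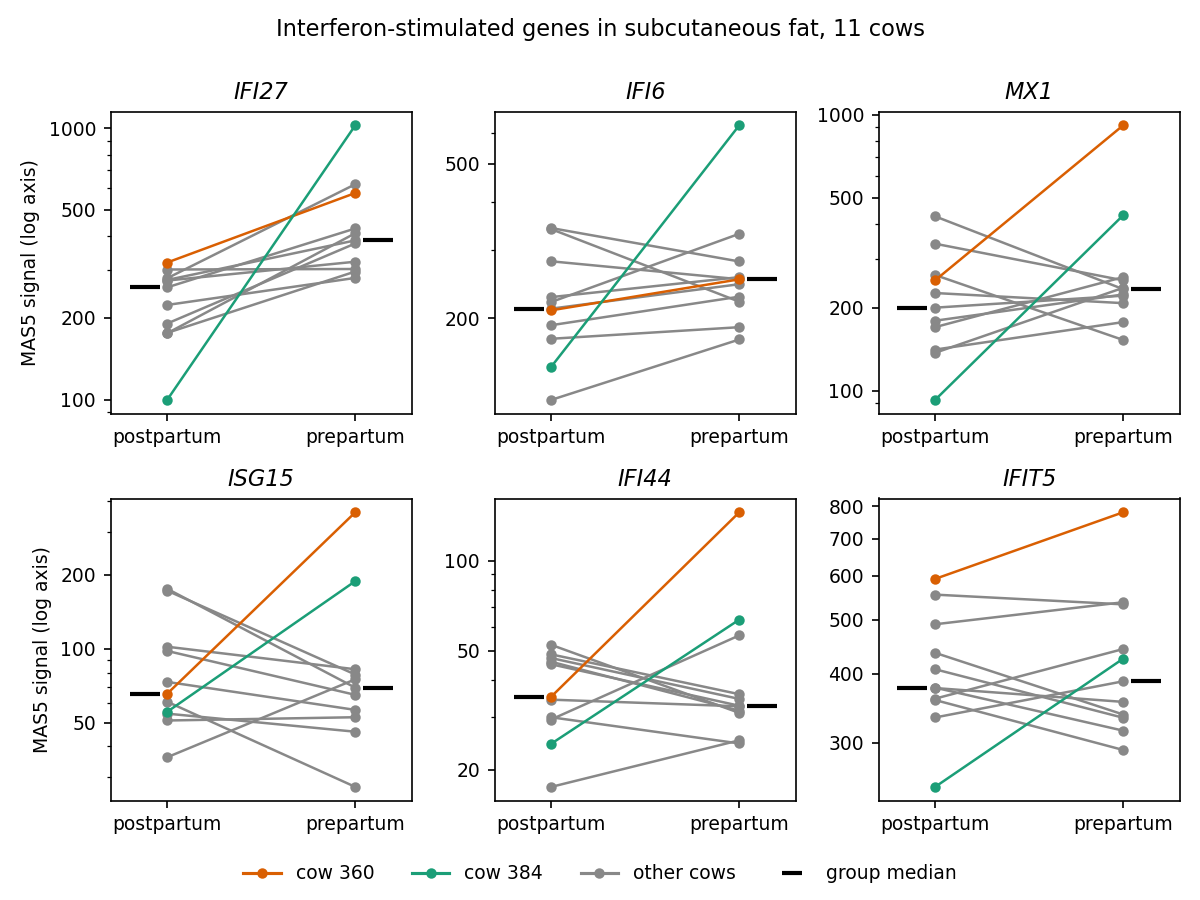
MAS5 signal on a log axis of 6 interferon-stimulated genes in the postpartum and prepartum arrays of 11 cows, with a line for each cow and a bar at each group median. IFI27 lies lower postpartum in all 11 cows, although barely in cow 382, while prepartum arrays of cows 360 and 384 stand above the rest for several of the other genes.

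IFI27 and IFI6 belong to the same family of small membrane proteins, and IFI6 is known from human cells to protect mitochondria during apoptosis. IFI27 had postpartum signals with a lowest value of 99.6, a median of 259 and a highest value of 320. Its prepartum signals had a lowest value of 281, a median of 386 and a highest value of 1026. The groups overlapped in few arrays: 9 of 11 postpartum arrays lay below every prepartum array, and 8 of 11 prepartum arrays lay above every postpartum array. On the log2 scale IFI27 averaged 7.86 ± 0.47 postpartum and 8.75 ± 0.56 prepartum (SD, n = 11 each). The change was -0.89 (SE 0.22, adjusted p = 0.0426 with limma), and it was negative in 11 of 11 cows.

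The size of the IFI27 fall varied among cows. It was widest in cow 384, with 99.6 postpartum and 1026 prepartum, a change of -3.27. Cow 382 had nearly equal signals of 302 postpartum and 303 prepartum. Cows 338 and 330 followed cow 384, with changes of -1.19 and -1.13. The postpartum array of cow 384 was also the one with the highest muscle markers and the lowest adipocyte markers, at -1.76 log2 units from their medians. Without cow 384 the IFI27 change was -0.66 with an adjusted p of 0.00462 in limma.

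The IFI27 call was close to the threshold. It was lost without any 1 of 8 cows (330, 331, 338, 341, 346, 347, 360 or 382), with adjusted p-values in limma up to 0.0853. It was also lost with no filter (adjusted p = 0.059 with limma), without moderation (0.109) and in array set 2 alone (0.415). Without the 4 cows with a high epidermal list level it was lost as well (adjusted p = 0.259 with limma). In all 29 alternatives the change stayed negative, from -1.10 to -0.64.

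IFI6 had postpartum signals of 123 to 342 with a median of 212, and prepartum signals of 176 to 629 with a median of 252. The groups overlapped, and the highest value belonged to the prepartum array of cow 384. The IFI6 change was -0.27 (SE 0.18, adjusted p = 0.423 with limma), with lower postpartum signals in 8 of 11 cows. IFI27 changed by more than its relative. The change of IFI27 minus that of IFI6 averaged -0.62 log2 units (SD 0.39, n = 11 cows) and was negative in 10 of 11 cows (exact sign-flip permutation test, two-sided, p = 0.00293). That comparison was the only one of its kind made. It was added after IFI27 was known to be called, a choice that favours such a gap, so its p-values are descriptive. Its value was -0.52 without cows 384 and 387 (n = 9 cows, exact sign-flip p = 0.0117). Another gene of the family, ISG12(B), whose protein-coding neighbour is IFI27 in RefSeq's table for ARS-UCD2.0, had a change of 0.29 (SE 0.19, adjusted p = 0.412 with limma).

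MX1 and MX2 encode dynamin-like GTPases that block the replication of RNA viruses, and their genes lie close together. MX1 had postpartum signals of 92.5 to 428 with a median of 200, and prepartum signals of 153 to 915 with a median of 233. The groups overlapped over most of their range. Cow 360 had 251 postpartum and 915 prepartum, and cow 384 had 92.5 postpartum and 432 prepartum. Cow 382 ran the other way, with 428 postpartum and 233 prepartum. The mean MX1 change was -0.35 (SE 0.25, adjusted p = 0.459 with limma), lower in 7 of 11 cows. It was 0.01 without cows 360 and 384, a shift favoured by the choice of those cows. MX2 was dim, at the 21.6th percentile of bovine probe sets, with signals of 0.918 to 18.5 postpartum and 1.88 to 29.6 prepartum. Its mean change was -0.18, and with no filter it had an adjusted p of 0.816 in limma.

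ISG15 encodes a ubiquitin-like modifier that is joined to target proteins and is also secreted. Its probe set had postpartum signals of 36.1 to 176 with a median of 65.5. Its prepartum signals ran from 27.3 to 360 with a median of 69.4, so that the groups overlapped. The 2 highest ISG15 signals came from cows 360 (360) and 384 (189), both prepartum, and the next 2 from cows 346 (176) and 382 (173), both postpartum. The mean change of ISG15 was -0.02 (SE 0.29, adjusted p = 0.975 with limma), with a higher postpartum signal in 7 of 11 cows and an SD of change of 1.14, the widest of the 6 genes. Without cows 360 and 384, picked for their high prepartum levels, its change was 0.41 (adjusted p = 0.229 with limma).

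IFIT proteins bind foreign RNA. IFIT5, known in human cells to bind RNA with phosphate at its end, had postpartum signals of 250 to 592 with a median of 377, and prepartum signals of 291 to 781 with a median of 387. Cow 360 was highest at both stages and the groups overlapped. IFIT5 varied least of the 6 genes between stages, with an SD of change of 0.35, and its mean change was -0.04 (SE 0.10, adjusted p = 0.865 with limma). IFIT2, a related gene below the filter, had signals of 3.66 to 47.2 postpartum and 4.18 to 33.3 prepartum. Its mean change was 0.29, with an adjusted p of 0.458 in limma when no filter was used.

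IFI44, a cytosolic protein that interferon induces strongly in human cells, was read by 4 probe sets. The brightest had postpartum signals of 17.5 to 52.3 with a median of 35.1, and prepartum signals of 24.5 to 145 with a median of 32.7. Cows 360 (145), 384 (63.5) and 347 (56.3) had the 3 highest values, all prepartum, while the remaining arrays of the groups overlapped. Its change was -0.15 (SE 0.21, adjusted p = 0.746 with limma). Another pair of kept IFI44 probe sets each had a change of -0.22 (adjusted p = 0.513 and adjusted p = 0.57 with limma). The last lay below the filter at the 36.9th percentile and had a change of -0.45. All 4 had their highest signal in the prepartum array of cow 360. IFI44L, the neighbouring relative, had a change of -0.12 (SE 0.17, adjusted p = 0.744 with limma).

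**Figure D2:**
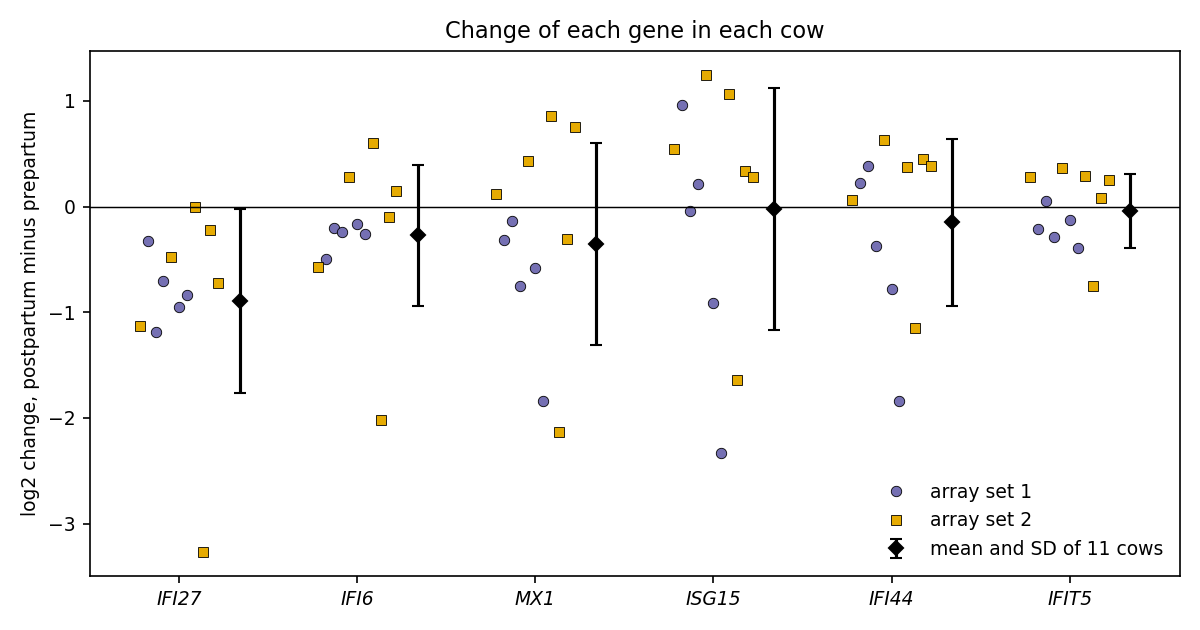
Log2 change, postpartum minus prepartum, of 6 interferon-stimulated genes in each of 11 cows, with symbols for the array sets and a diamond with bars for the mean and SD. The points of IFI27 lie at or below 0 in all cows with a mean of -0.89, and those of the other 5 genes lie on both sides of 0.

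Single animals set the highest levels of the members. The prepartum array of cow 360 had the highest of 22 levels in 4 of the 6 genes (ISG15, IFI44, IFIT5 and MX1). The prepartum array of cow 384 was highest in the other 2 (IFI27 and IFI6) and among the top 2 in 5 of the 6. The share of all genes that peak on these arrays was not computed, so the counts cannot be read as particular to the members. Taken as the median over the 6 genes of the distance from each gene's own median, cow 360 prepartum stood 1.44 log2 units up, cow 384 prepartum 1.15 up and the next array 0.54 up. The lowest was the postpartum array of cow 384, at -0.59.

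Levels of the immune cell lists in those prepartum arrays were as follows. In cow 360 the medians of the macrophage, neutrophil, dendritic cell and lymphocyte lists were -0.55, -0.96, -0.017 and -0.35 log2 units from the list genes' own medians. In cow 384 they were -0.08, -0.79, -0.015 and -0.39, while skeletal muscle markers stood 3.24 up. Some markers ran the other way. The macrophage gene C1QA had a signal of 1864 in cow 384, against a prepartum median of 1366. C1QB, C1QC, CD68, FCER1G and MSR1 also exceeded their prepartum medians there, while CTSS, LAPTM5, CD14, AIF1 and CSF1R lay below theirs. TYROBP was at its median. The immunoglobulin J chain gene JCHAIN had 534 in cow 360, against a prepartum median of 322. IRF8 had 153 in cow 360 and 173 in cow 384, against a prepartum median of 120.4. It is a factor of dendritic cells and other leukocytes, and also one of the listed interferon regulatory factors. Immune cell content was not tested against the member levels. Muscle markers stood at -0.22 in the prepartum array of cow 360.

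**Figure D3:**
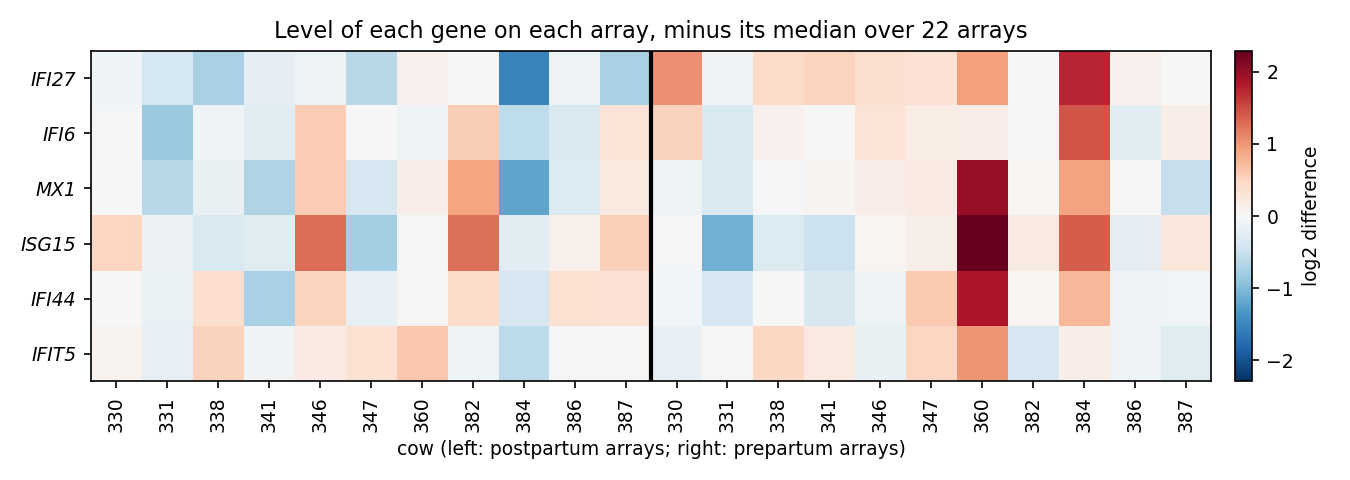
Log2 level of 6 interferon-stimulated genes (rows) on each of 22 arrays (columns, postpartum left and prepartum right, ordered by cow number), minus the median of the gene over all arrays. The prepartum column of cow 360 is darkest red for MX1, ISG15, IFI44 and IFIT5, and that of cow 384 for IFI27 and IFI6.

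The per-cow changes of the members were compared in pairs. Between the 6 genes there are 15 pairs, and the per-cow changes correlated positively in all 15 over 11 cows, with Pearson's r from 0.515 (IFI27 and IFI44) to 0.936 (IFIT5 and MX1) and a median of 0.762. Spearman's rho for IFIT5 and MX1 was also 0.936. Without cows 360 and 384 all 15 stayed positive over 9 cows, from 0.096 (IFI27 and IFIT5) to 0.865 (IFIT5 and MX1), with a median of 0.553. IFI27 and MX1 then had 0.303. These correlations are descriptions without a test, and the points share the arrays of their cows. The share of positive pairs over all genes was not computed, so the count cannot be read as particular to the members.

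Genes with a similar pattern were then ranked. Each array was given the mean standardised level of the 6 members after removal of the group means, and 6978 other genes were ordered by their Pearson's r with it over 22 arrays, which share cows in pairs. The closest was UBA7, the enzyme that activates ISG15 for conjugation (r = 0.85, rho = 0.854, and r = 0.815 over 20 arrays without the prepartum arrays of cows 360 and 384). IFITM1, a membrane protein that restricts virus entry, had r = 0.825. A locus for which RefSeq gives IFITM3 as a synonym, LOC282255, had r = 0.817 through a probe set of the same sequence cluster as that of IFITM1. XAF1 (0.8), the RNA sensor regulator DHX58 (0.792), the unnamed locus LOC100298356 (0.784), the histone gene H3-3B (0.762) and IRF9, the DNA-binding subunit of the interferon transcription complex (0.76), completed the first 8. In this ranking 5 of the first 8 and 10 of the first 20 genes came from the interferon pathway lists, which made up 58 of 6978 genes (0.831%). The most opposed genes were NAMPT, an enzyme of NAD synthesis (r = -0.777), DLD, a subunit of mitochondrial dehydrogenases (-0.749), and ANKRD40 (-0.747).

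**Figure D4:**
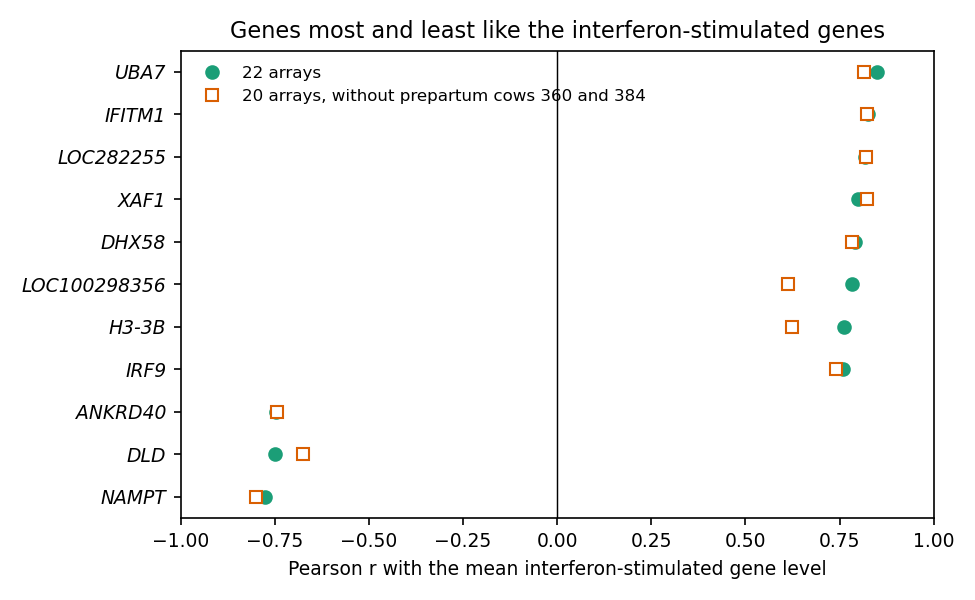
Pearson's r between single genes and the mean level of 6 interferon-stimulated genes, for the 8 most similar and 3 most opposed of 6978 genes, over 22 arrays (circles) and over 20 arrays without the prepartum arrays of cows 360 and 384 (squares). Among the similar genes, squares fall farthest below the circles for LOC100298356 and H3-3B.

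The genes upstream of the members and alongside them did not pass the test between stages. The ligand genes IFNG, IFNT2, IFNAC and IFNB1 were all below the filter, as was the receptor subunit IFNAR1. IFNAR2, the other chain of the type I receptor, had signals of 92.7 to 294 postpartum and 161 to 284 prepartum and a change of 0.04 (adjusted p = 0.896 with limma). Among the transducers STAT2 had a change of -0.13 (adjusted p = 0.58) and IRF9 of 0.01 (adjusted p = 0.979), both with limma. No probe set carried the single symbol IRF1, OAS2, BST2 or IFIH1. IRF7, which amplifies interferon production, had a change of -0.25 (adjusted p = 0.482 with limma) in its brighter probe set.

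The list of interferon regulatory factors also named kinases, but none of those was kept. By list, 0 of 5 kept sensors and adaptors, 0 of 5 interferon regulatory factors and 0 of 3 receptors were called in either direction. Nor were any of 4 transducers, 5 negative regulators or 3 ISG15 conjugation genes. With 3.71% of all genes called, lists this short would hold few calls or none at that share. Their median changes ran from -0.15 (ISG15 conjugation) to 0.17 (regulatory factors), against 0.01 for all genes. USP18, the protease that removes ISG15 and restrains the receptor, had a change of 0.06 (adjusted p = 0.876 with limma) in the brightest of 4 probe sets. Of 23 other type I effectors 0 were called, against 3.71% of all genes, and 5 had a negative change, against 47.4% of all genes. Their median was 0.10. Among them RSAD2, the antiviral enzyme viperin, had signals of 75.4 to 418 postpartum and 187 to 833 prepartum. Its highest value was again the prepartum array of cow 360, and its change was -0.19 (adjusted p = 0.676 with limma). Of 11 type II interferon targets, such as the immunoproteasome subunits and guanylate-binding proteins, 0 were called and 1 had a negative change, with a median of 0.19.

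**Figure D5:**
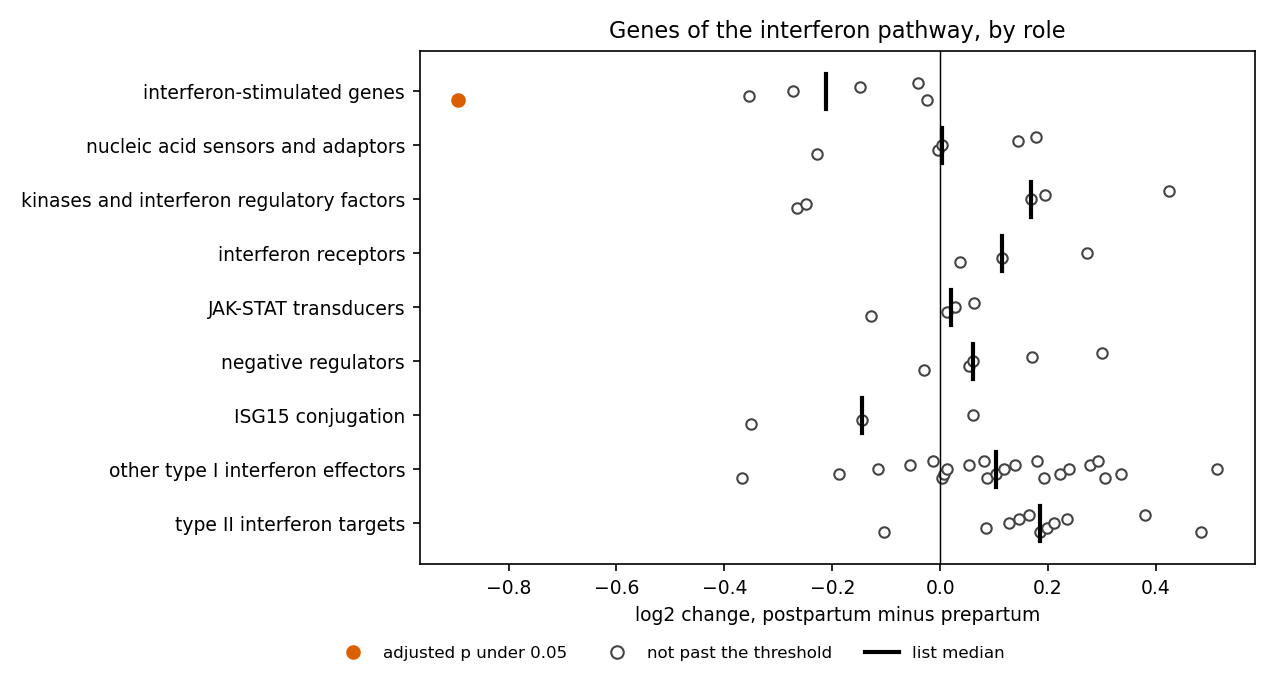
Log2 change, postpartum minus prepartum, of each tested gene of the interferon pathway by role, with a bar at the median of each list and a filled point where the adjusted p was under 0.05. IFI27, at -0.89, is the filled point, and no gene of the other lists is filled.

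Some cell type markers were called between stages, and their part in the IFI27 change was not tested. Of all genes tested, 2.16% were called lower, 1.55% were called higher and 47.4% had a negative change. In bulk tissue, fewer cells of a type and less RNA per cell cannot be told apart. Of 15 adipocyte markers 3 fell, LEP, LPL and GPD1, and the summed signal of the list was 17453 to 38324 postpartum and 26504 to 41786 prepartum. Of 11 endothelial markers 2 rose, VWF and TEK, with sums of 2372 to 6503 postpartum and 3762 to 5377 prepartum. All 12 macrophage markers had a positive change with 0 called, and their sum was 3611 to 15607 postpartum and 3816 to 8091 prepartum. None of 5 neutrophil markers was called, with sums of 396 to 7454 postpartum and 422 to 2795 prepartum, nor any of 10 lymphocyte markers, with sums of 353 to 2891 postpartum and 660 to 2097 prepartum. No marker was listed at 0 on any array. With the muscle marker level as a covariate the IFI27 change was -0.87 (adjusted p = 0.0354 with limma). No fit took the adipocyte, endothelial or immune cell level as a covariate.

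The array sets were compared in turn. The IFI27 change averaged -0.97 ± 1.19 in set 2 (SD, n = 6) and -0.80 ± 0.32 in set 1 (SD, n = 5). MX1 averaged -0.05 in set 2, lower in 2 of 6 cows, and -0.72 in set 1, lower in 5 of 5 cows. IFI6 averaged -0.27 in both sets and was lower in 3 of 6 cows of set 2 and in 5 of 5 of set 1. The difference of the change between sets was not called for any member by limma's interaction test, with differences of -0.17 to 0.73, adjusted p-values of 0.997 to 1 and a lowest unadjusted p of 0.165. That test called 0 of 6984 genes (0%), and 210 had an unadjusted p under 0.05.

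Levels were compared between the sets as well, with cow as a random block. IFIT5 was lower in array set 2, with a median signal of 357 and a range of 250 to 436, against a median of 512 and a range of 333 to 781 in set 1. The difference was -0.46 log2 units (SE 0.13, adjusted p = 0.0149 with limma). It was the 1 call among the 6 genes, in a comparison that called 17.8% of all genes. The call was lost without cow 338 (adjusted p = 0.0514) or cow 360 (adjusted p = 0.0544) in limma. IFIT2, below the filter, had median signals of 26.1 in set 2 and 6.54 in set 1.

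A moderated F test asked whether a gene kept a level of its own in each cow across both stages. None of the 6 genes was called, while 1.88% of all genes were. IFIT5 came nearest (adjusted p = 0.125 with limma), and IFI27 was farthest (adjusted p = 0.878 with limma).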

How the data were processed

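Subcutaneous fat of 11 cows was hybridised to 22 Affymetrix bovine arrays. The authors deposited linear MAS5 signal intensities per probe set, per the submitters' processing notes. The MAS5 version and any build were not given in the sources used here. On each array the trimmed mean was 125 when 2% of values were removed at each end, so arrays had been scaled as a whole. Of 24128 probe sets 112 controls were left out. The annotation gave 13292 bovine probe sets 1 symbol, 86 several and 10638 none, and 13263 symbols were taken through Entrez identifiers from RefSeq (ARS-UCD2.0). Values were taken as log2(signal + 7.78), the pseudocount being the typical (median) 20th percentile of an array. Probe sets at or above the 40th percentile of mean level (14410) were tested with limma 3.58.1 in R 4.3.3, blocking on cow, letting the variance follow intensity and calling at a Benjamini-Hochberg adjusted p under 0.05. The brightest kept probe set stood for a gene. The design text and cow numbers pair the samples, with cow 387 in doubt (correlations of deviations are in the report). Nothing in the labels describes repeat sampling of a cow within a stage.

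Named genes were all members, the called genes of each fixed list (at most 3 of a pathway list with the largest change, and 2 of a marker list), 12 fixed pathway genes where measured, and the 8 genes most like and 3 least like the member mean. ISG12(B), IFI44L, the macrophage markers, JCHAIN, IRF8, KRT5, KRT10 and 1 of the 3 adipocyte markers were named after their values were seen. The members and lists were chosen with earlier results of these data known. Alternatives varied the normalization, pseudocount, filter, variance model, array weights, cows, block and probe sets. No sequence of a member was used here. Plots used matplotlib 3.10.9 under Python 3.11.15.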

Additional observations from a re-analysis of the deposited data

How the results depend on the processing

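The omission of cows 360 and 384 together and the IFI27 against IFI6 comparison were added with the values in view. The other alternatives were planned, and the cause of each shift was not tested. Cows 360 and 384 had the highest prepartum member levels, so their choice favoured a rise of the member changes without them. For the postpartum effect, 1 of 6 member genes was called. That count was 0 with no filter, with an ordinary paired test, within array set 2, and when cows 330, 331, 341 and 382 were omitted, and it was 0 to 1 without single cows. With no replicate block IFI27 kept its change of -0.89 (adjusted p = 0.0201 with limma), and the block changed no other call of a member. No other member was called in any alternative. Whole-table calls were 494 of 14410 probe sets, against 1048 at an adjusted p under 0.10, 1076 with array weights and 291 with an ordinary paired test. They were 69 within array set 1 and 0 within array set 2 (where 1526 had an unadjusted p under 0.05). They were 1070 when cows 384 and 387 were omitted, and 242 to 969 on omission of 1 cow at a time. When those with a high epidermal list level (cows 330, 331, 341 and 382) were omitted, 6 were called.

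Genes that did not pass changed sign in places. In array set 2 alone the change was 0.13 for IFI44, 0.087 for IFIT5, 0.31 for ISG15, 0.0078 for STAT2 and -0.014 for IFNAR2, and in array set 1 alone it was -0.12 for IRF9 and -6e-04 for USP18. Without cows 360 and 384 it was 0.15 for IFI44, 0.077 for IFIT5, 0.41 for ISG15, 0.0073 for MX1 and 0.14 for RSAD2. With array weights it was 0.018 for IFIT5 and 0.10 for ISG15, and without cows 384 and 387 it was 0.0054 for IFIT5 and 0.12 for ISG15. Without cows 330, 331, 341 and 382 it was -0.096 for IFNAR2, -0.11 for IRF9 and -0.080 for USP18, and with the mean of all probe sets it was -0.062 for USP18. Without single cows the changes ran from -0.23 to 0.020 for IFI44, -0.081 to 0.030 for IFIT5, -0.15 to 0.21 for ISG15, -0.023 to 0.14 for IFNAR2, -0.077 to 0.16 for IRF9 and -0.0065 to 0.20 for USP18. Quantile normalization and both other pseudocounts reversed none of the members.

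The IFI27 minus IFI6 difference was -0.53 in array set 1 alone (exact p = 0.125, n = 5, where 0.0625 is the smallest possible) and -0.70 to -0.56 without single cows. For levels between array sets, 1 member was called, against 2 with no filter (IFIT2 and IFIT5), 2 without cows 360 and 384 (ISG15 and IFIT5), and 0 to 1 without single cows. Without cow 360 the 1 called was ISG15, not IFIT5. For levels among cows, 0 were called, against 1 (IFIT5) with array weights, 1 when cows 384 and 387 were omitted, and 0 to 1 on omission of single cows. The interaction called 0 members throughout, 0 to 0 without single cows. IFIT2 and MX2, below the filter, were tested between stages with no filter only, and neither was called.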

Other observations

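After the prepartum arrays of cows 360 and 384, the highest member levels were in the postpartum arrays of cows 346 and 382, at 0.54 and 0.49 log2 units above the gene medians. Both animals had a higher ISG15, MX1, IFI6 and IFIT5 signal postpartum, and a higher signal of the brightest IFI44 probe set. Another kept IFI44 probe set was lower postpartum in cow 346 (29.7 against 32.2 prepartum). Both animals belong to array set 2. Their neutrophil marker levels were the 2 highest of 22, at 2.46 and 3.30, as were their lymphocyte marker levels, at 1.15 and 0.93. Their macrophage markers stood at 0.06 and 0.32. Cows 360 and 384 prepartum, with higher member levels still, had neutrophil markers at -0.96 and -0.79. The part of these cells in the member levels was not tested.

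IFI27 stood apart from the other members in cow 382, where ISG15 was 173 postpartum and 78.5 prepartum and MX1 was 428 postpartum and 233 prepartum while IFI27 had 302 postpartum and 303 prepartum. In cow 346 ISG15 was 176 postpartum and 69.4 prepartum, and IFI27 was 276 postpartum and 386 prepartum. These values belong to single animals and were not tested.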
